A study of Mus musculus with 40 samples.

Results

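PAX5-G183S was set against PAX5-WT in J558LuM cells, a mouse plasmacytoma line known for making no PAX5 of its own. The comparison takes the arrays whose titles name these constructs, 14 of the 40 in the series. PAX5-G183S carries a serine in place of a glycine in the octapeptide motif, and PAX5-G183V carries a valine at the same glycine. PAX5-G183S, PAX5-G183V, PAX5-WT and the empty vector, called MIR, had 7 arrays each. All of them hold total RNA of the 1 transduced cell line, and the labels do not say how much PAX5 protein each culture made. Each array had a transduction number of its own, so the p-values rest on how far transductions of that one line differ. PAX5-G183S had 3 arrays in RNA isolation batch 1 and 4 in batch 2, against 4 and 3 for PAX5-WT, and both had 4 arrays on plate 1 and 3 on plate 2. The title of the series ties inherited PAX5 changes to leukaemia of B cell precursors. The comparison shows where expression differed between cultures given the altered and the wild-type construct, whatever amount of PAX5 each made.

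PAX5 is the transcription factor that commits precursors to the B cell lineage and holds that identity until B cells become plasma cells, which switch it off. It binds DNA through its paired domain and can activate or repress the genes it binds. The octapeptide is a short conserved motif through which PAX family proteins recruit Groucho co-repressors, named TLE in mammals. Putting PAX5 back into a plasmacytoma line is a way to read which genes the factor moves in a cell that has already passed the B cell stage.

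Levels are the authors' log2 signals, on which a difference of 1 is a doubling. Medians of the 14 arrays lay between 4.21 and 4.27, and precision is limited by the 7 arrays of each construct, whose difference had a median SE of 0.08 over all genes. The line's plasma cell identity showed in the data. All 5 measured plasma cell markers (Prdm1, Xbp1, Irf4, Jchain and Tnfrsf17) exceeded 8 in the mean of the PAX5-G183S arrays, the measure used for each marker here. The mean over them ran from 10.8 to 11.4 in PAX5-G183S arrays and from 10.8 to 11.3 in PAX5-WT arrays. Of 5 B cell markers, Ms4a1 and Cd79b exceeded 8. Ms4a1 averaged 8.77 in PAX5-G183S arrays and 9.08 in PAX5-WT arrays but 3.79 in MIR arrays, while Cd79b averaged 10.1 in MIR arrays too. Of 10 T cell and 10 myeloid markers, Cd3g and Cd68 exceeded 8, and of 5 erythroid and 10 fibroblast markers 0 did. None of the markers of any of these types was called, and all mean marker levels of PAX5-G183S arrays overlapped those of PAX5-WT arrays. PAX5-G183S replicate 7 stood apart from its group, with a residual SD of 0.19 over all genes against 0.13 to 0.15 in the other 13 arrays. PAX5-G183S replicate 4 bears transduction number 45, which the labels place in isolation batch 2, while the other arrays of both constructs bear numbers of 36 to 44 and 61 to 66. The Pax5 probe set averaged 4.64 in PAX5-G183S arrays, 4.77 in PAX5-WT arrays and 4.47 in MIR arrays. PAX5-G183S and PAX5-WT differed there by -0.14 ± 0.15 (SE; limma adjusted p = 0.985), and whether the probe set matches the constructs was not tested.

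PAX5-G183S differed from PAX5-WT at few genes, and nearly all of them were lower with the altered protein. Klhl14, Lca5, Themis2, Zc3h12c, Hnrnpll, Tspan15, Traf5, Gk5, Fam111a, Rbms1, 4833439L19Rik and Inpp4b fell, and Usp2 rose. These 13 genes are 0.076% of the 17097 genes tested, 12 lower (0.0702%) and 1 higher (0.00585%). They were called at a limma adjusted p under 0.05, and 942 genes (5.51%) had an unadjusted p under that value. For scale, PAX5-G183S differed from MIR at 1046 genes (6.12%) and PAX5-WT from MIR at 1099 (6.43%). The differences between the constructs were also small in size. PAX5-G183S and PAX5-WT were at least 1.5-fold apart at 9 genes, called or not, where PAX5-WT and MIR were that far apart at 148. The central 95% of all differences ran from -0.18 to 0.17, and their median was 0.00.

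**Figure D1:**
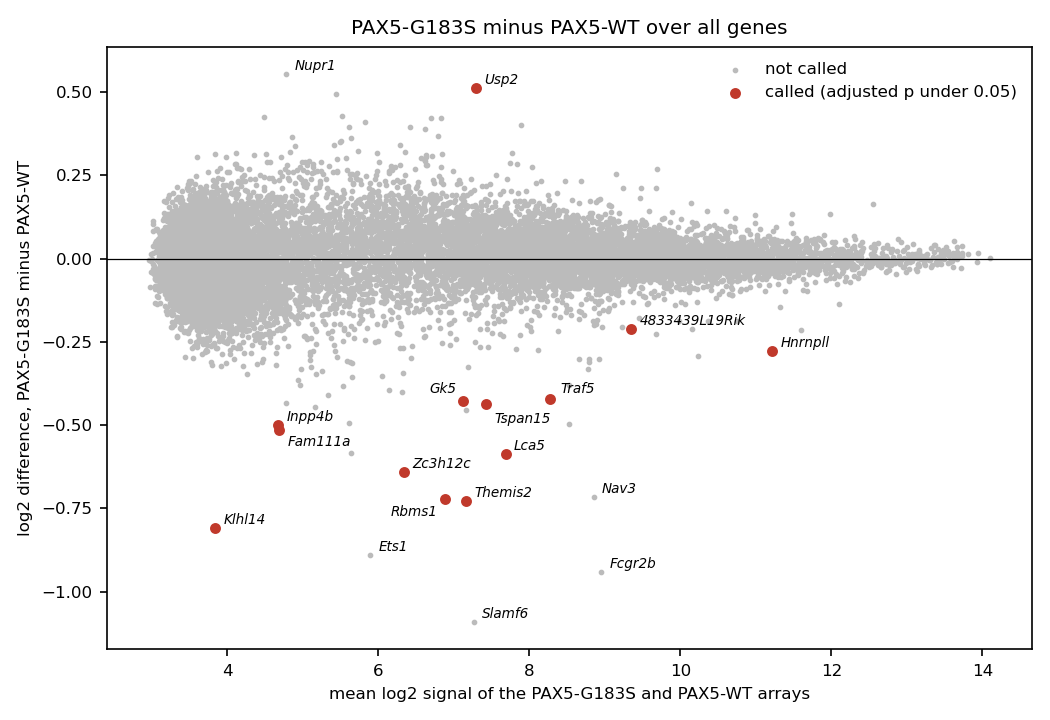
The vertical axis is the log2 difference, PAX5-G183S minus PAX5-WT, and the horizontal axis the mean log2 signal over the 14 arrays, with 1 point a gene. The 13 called genes are red; 12 lie below 0 and Usp2 lies above, while Slamf6, Fcgr2b, Ets1 and Nav3 lie near or below them without a call, with SE of 0.20 to 0.37.

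Among the regulators of signalling, Klhl14 showed the widest relative gap. It encodes a member of the Kelch-like family, whose proteins bring substrates to CUL3 ubiquitin ligases, and it is expressed in B cells. Its level was 3.26, 3.49 and 3.55 in PAX5-G183S arrays (lowest, median and highest of 7), against 3.99, 4.21 and 4.59 in PAX5-WT arrays. The ranges did not overlap, with PAX5-G183S below. The difference was -0.81 ± 0.08 (SE; limma adjusted p = 7.03e-08), which puts the signal with PAX5-G183S at 57.1% of that with PAX5-WT. These levels are dim, at 3.26 to 4.59 beside array medians of 4.21 to 4.27, and background signal can make a fold look smaller there. In RNA from many cells, a lower level in each cell and fewer cells with the transcript cannot be told apart, here or at the other genes.

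Themis2 encodes a scaffold protein of antigen receptor signalling in B cells and of signalling in macrophages. It had levels of 6.53, 6.72 and 7.11 in PAX5-G183S arrays, against 7.19, 7.61 and 7.74 in PAX5-WT arrays. The groups did not overlap, and the PAX5-G183S arrays also lay below all 7 MIR arrays, none of which was as low as the highest PAX5-G183S array. The difference from PAX5-WT was -0.73 ± 0.08 (SE; limma adjusted p = 7.03e-08). Themis and Themis3, the other 2 measured family members, were not called, and the highest difference in the family was -0.01 for Themis3.

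Traf5 encodes an adaptor that carries signals from receptors of the TNF receptor superfamily towards NF-kB. It stood at 7.92, 8.09 and 8.30 in PAX5-G183S arrays, against 8.31, 8.38 and 8.66 in PAX5-WT arrays. The 2 groups met closely without overlap, and both lay well above MIR, which had a median of 6.89. Traf5 fell by 0.42 ± 0.07 relative to PAX5-WT (SE; limma adjusted p = 0.00282). Of the 8 Traf genes measured it was the 1 that passed the test.

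Inpp4b encodes a phosphatase that removes a phosphate from a phosphoinositide of the PI3K pathway. Its levels were dim in both groups, at 4.25, 4.39 and 4.77 in PAX5-G183S arrays and at 4.67, 4.95 and 5.13 in PAX5-WT arrays. The ranges overlapped, with 6 of 7 PAX5-G183S arrays under the lowest one with PAX5-WT. The difference was -0.50 ± 0.10 (SE; limma adjusted p = 0.0342), and a second, dimmer probe set differed by -0.10 ± 0.10. The call lay near the threshold and was made in 4 of 14 fits that left out 1 array each. Those were the fits without PAX5-G183S replicate 2 or 6 or PAX5-WT replicate 3 or 5, and the adjusted p reached 0.130 in the others.

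Of the genes for RNA-binding proteins, Zc3h12c belongs to the Regnase family of endonucleases that act on messenger RNA. It had levels of 5.36, 6.11 and 6.36 in PAX5-G183S arrays, against 6.30, 6.70 and 6.97 in PAX5-WT arrays. All but 1 of the PAX5-G183S arrays lay under the lowest PAX5-WT array. Zc3h12c fell by 0.64 ± 0.10 (SE; limma adjusted p = 0.000273), and its second probe set differed by -0.35 ± 0.09. Zc3h12a was at 0.16, the highest of the 3 family members measured, and was not called.

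Rbms1 encodes a protein that binds single-stranded nucleic acids. Its levels were 6.36, 6.52 and 6.64 in PAX5-G183S arrays, against 7.03, 7.17 and 7.49 in PAX5-WT arrays, with no overlap and an empty space between the groups. The difference was -0.72 ± 0.15 (SE; limma adjusted p = 0.0342), and the second probe set of the gene differed by -0.90 ± 0.17. That SE is pooled over all 6 groups of the series. A fit of these 14 arrays alone gave -0.75 ± 0.08 and an adjusted p of 0.000972. In the pooled fit Rbms1 stayed past the threshold in 3 of the 14 fits that left out an array, those without PAX5-G183S replicate 4 or PAX5-WT replicate 2 or 4, and its adjusted p reached 0.154 in the others.

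Hnrnpll encodes an RNA-binding protein known for directing alternative splicing of CD45 in lymphocytes. It was the brightest of the called genes, at 10.92, 11.11 and 11.19 in PAX5-G183S arrays and at 11.19, 11.39 and 11.49 in PAX5-WT arrays. The groups touched at their ends, and 6 of 7 PAX5-G183S arrays lay under the lowest PAX5-WT array. Hnrnpll fell by 0.28 ± 0.04 (SE; limma adjusted p = 0.00047), a small step with a narrow spread between arrays. A second probe set differed by -0.35 ± 0.04.

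Lca5 encodes lebercilin, a protein of the ciliary axoneme. It had levels of 7.03, 7.42 and 7.70 in PAX5-G183S arrays, against 7.69, 7.92 and 8.33 in PAX5-WT arrays. The highest PAX5-G183S array just passed the lowest PAX5-WT array, and the other 6 lay below all of them. The difference was -0.59 ± 0.06 (SE; limma adjusted p = 7.03e-08). Of 8 genes of the Bardet-Biedl syndrome group, which also encode ciliary proteins, 0 were called, 0 had an unadjusted p under 0.05, and their differences ran from -0.11 for Bbs9 to 0.13 for Bbs1.

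Tspan15, a tetraspanin that associates with the protease ADAM10, had levels of 7.00, 7.20 and 7.44 in PAX5-G183S arrays and of 7.49, 7.66 and 7.73 in PAX5-WT arrays. The groups did not overlap, although the lowest PAX5-WT array, replicate 4, came within reach of the highest PAX5-G183S array. Tspan15 fell by 0.44 ± 0.07 (SE; limma adjusted p = 0.000789), and it was the 1 gene called among 19 Tspan genes. The others ran no higher than 0.10, for Tspan6.

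Gk5, of the glycerol kinase family, had levels of 6.61, 6.91 and 7.22 in PAX5-G183S arrays and of 7.14, 7.31 and 7.61 in PAX5-WT arrays. The ranges overlapped by 1 PAX5-G183S array. Gk5 fell by 0.43 ± 0.08 (SE; limma adjusted p = 0.00881), and by 0.66 ± 0.10 in isolation batch 1 alone, while the value in isolation batch 2 alone was -0.23 ± 0.10. Without PAX5-G183S replicate 2 its adjusted p was 0.0515.

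Fam111a encodes a nuclear protease that acts at replication forks. It was dim, at 4.25, 4.34 and 4.69 in PAX5-G183S arrays and at 4.59, 5.06 and 5.13 in PAX5-WT arrays. The ranges overlapped, with 5 of 7 PAX5-G183S arrays below every PAX5-WT array. The difference was -0.51 ± 0.10 (SE; limma adjusted p = 0.0121), and it lost its call without PAX5-G183S replicate 4 or without PAX5-WT replicate 6 or 7, where the adjusted p reached 0.0713.

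4833439L19Rik, known here by its clone name, had the smallest difference of the 13. Its levels were 9.07, 9.27 and 9.33 in PAX5-G183S arrays, against 9.35, 9.46 and 9.59 in PAX5-WT arrays. The groups were close and did not overlap. The difference was -0.21 ± 0.04 (SE; limma adjusted p = 0.0342). Its 2 dimmer probe sets disagreed, at -0.13 ± 0.10 and 0.19 ± 0.09. The call held in 3 of the 14 fits without 1 array, those without PAX5-G183S replicate 5, 6 or 7, and the adjusted p reached 0.159 in the others.

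Usp2, which encodes a ubiquitin-specific protease, was the gene that rose. It had levels of 7.22, 7.47 and 8.01 in PAX5-G183S arrays, against 6.65, 7.08 and 7.45 in PAX5-WT arrays. The ranges overlapped, and 4 of 7 PAX5-G183S arrays lay above every PAX5-WT array. The difference was 0.51 ± 0.09 (SE; limma adjusted p = 0.00604), and without PAX5-G183S replicate 7 it was 0.46 ± 0.09 (adjusted p = 0.0256). Its second probe set differed by 0.17 ± 0.08. The other 43 of 44 Usp genes were not called, the lowest being Usp36 at -0.10.

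**Figure D2:**
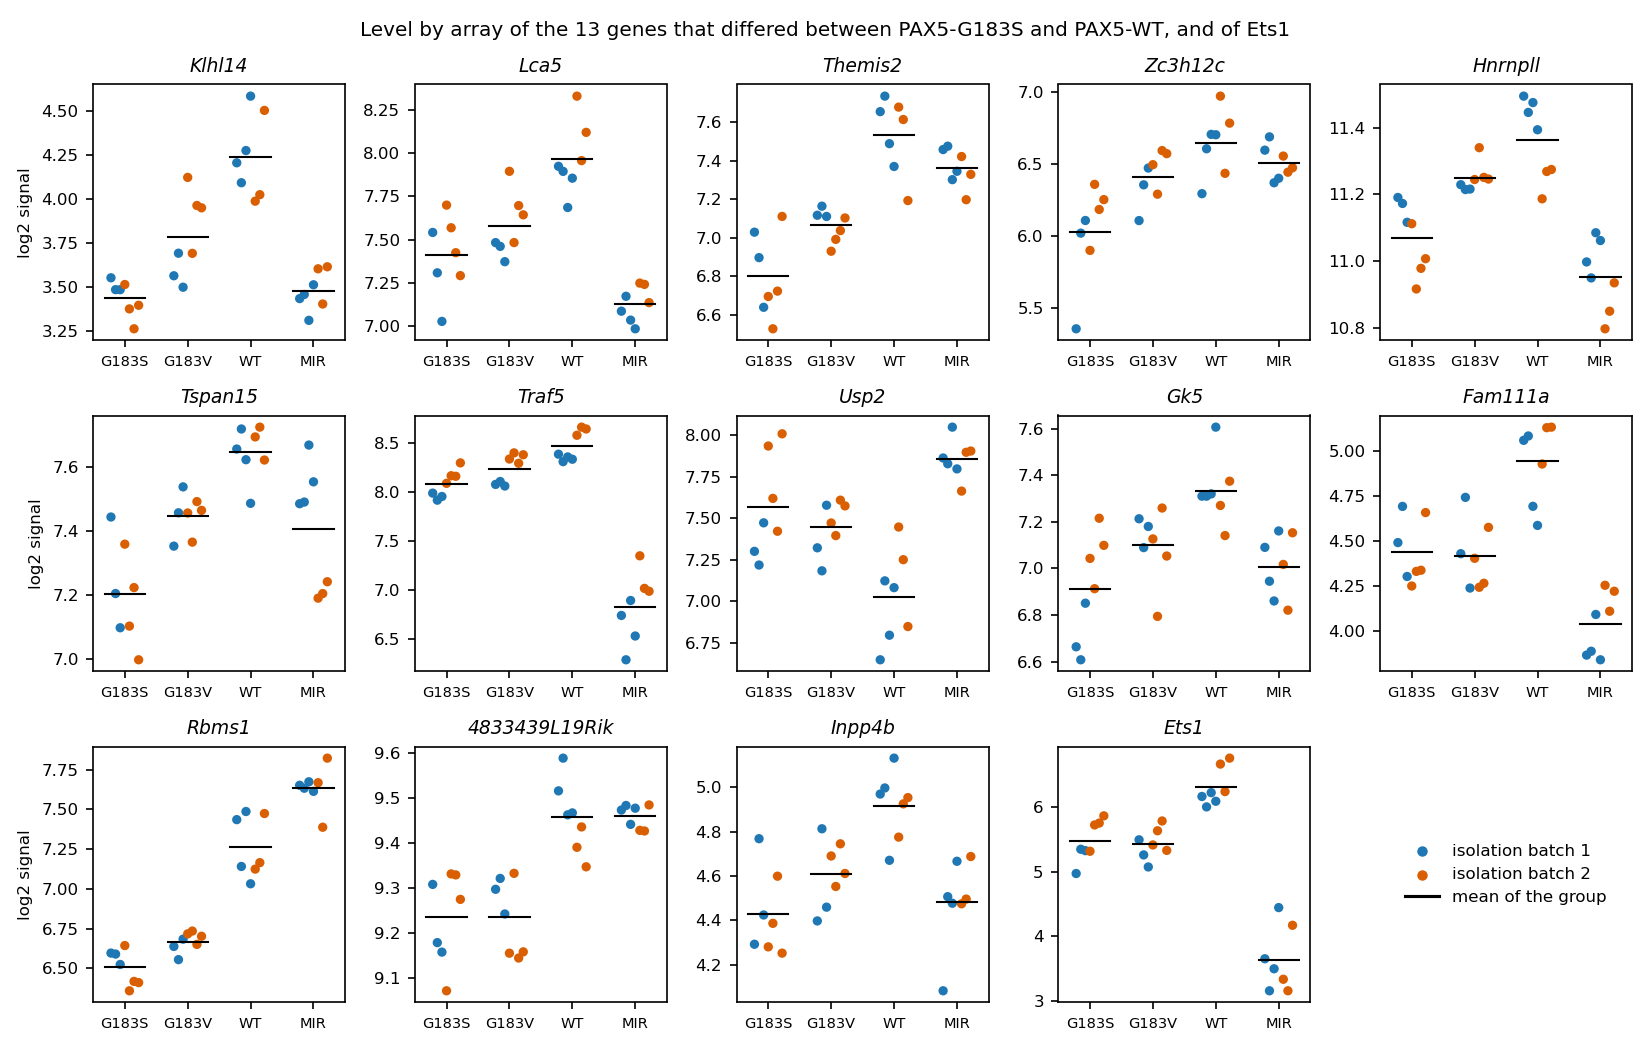
Each panel is a gene, with the log2 signal on the vertical axis and PAX5-G183S, PAX5-G183V, PAX5-WT and MIR along the horizontal axis; each point is an array, coloured by isolation batch, and the line is the mean of 7 arrays. Klhl14, Themis2, Tspan15, Traf5, Rbms1, 4833439L19Rik and Ets1 show no overlap between PAX5-G183S and PAX5-WT, and Usp2 is the panel in which PAX5-G183S lies higher.

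Complete separation of the 7 arrays of one construct from the 7 of the other was rare over the whole array set. At 16 genes (0.0936%) the highest PAX5-G183S array was below the lowest PAX5-WT array, and at 2 genes (0.0117%) the lowest was above the highest, Ppef2 and Hoxb13. Called genes made up 6 of the 16 (Klhl14, Themis2, Tspan15, Traf5, Rbms1 and 4833439L19Rik). The others were Ets1, Elovl6, Insl6, Pinlyp, Ceacam9, Gm8579, Pard6g, Alpi, Aspg and Cyth1. Ets1, which encodes a transcription factor that restrains plasma cell differentiation in B cells, is the one of these with the largest difference.

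Ets1 had levels of 4.97, 5.35 and 5.87 in PAX5-G183S arrays, against 6.00, 6.23 and 6.76 in PAX5-WT arrays. MIR arrays were lower than both, with a median of 3.50. The difference between the constructs was -0.89 ± 0.20 (SE; limma adjusted p = 0.0975), so it missed the threshold in the fit of all groups. In the fit of these 14 arrays alone it was -0.90 ± 0.09 with an adjusted p of 0.00063, the smallest adjusted p of that fit. The other 3 probe sets of Ets1, all dimmer, differed by -0.79, -0.29 and -0.15.

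The fit of the 14 arrays alone called 7 genes, Ets1, Klhl14, Traf5, Rbms1, Lca5, Themis2 and Tspan15, all lower with PAX5-G183S. Zc3h12c, Hnrnpll and Gk5 each had an adjusted p of 0.0641 there, and Usp2 had 0.339. The larger set of arrays gives the spread more degrees of freedom, and it also brings in the spread of the other groups.

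Both constructs can also be read against the empty vector, as a level without the factor. The 2 comparisons share the MIR arrays, so their values are given side by side. By which of these comparisons called them at an adjusted p under 0.05, the 13 genes fell into 3 patterns. For the background, PAX5-G183S was higher than MIR at 3.69% of all genes and lower at 2.43%, and PAX5-WT was higher at 3.59% and lower at 2.84%. PAX5-G183S did not pass against MIR while PAX5-WT differed from it at 5 genes, Klhl14, Hnrnpll, Inpp4b, Gk5 and Tspan15. Both differed from MIR at 4, Lca5, Fam111a, Traf5 and Usp2. PAX5-G183S differed from MIR and PAX5-WT did not pass at the remaining 4, Themis2, Zc3h12c, Rbms1 and 4833439L19Rik.

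Klhl14 belongs to the first pattern. PAX5-G183S minus MIR was -0.05 ± 0.08 (SE; limma adjusted p = 0.836), and PAX5-WT minus MIR was 0.76 ± 0.08 (adjusted p = 7.02e-09). The PAX5-G183S and MIR arrays covered almost the same range, 3.26 to 3.55 and 3.31 to 3.62. Both ranges lie below the array medians of 4.21 to 4.27, where background signal could hide a difference. Inpp4b gave -0.07 ± 0.10 with PAX5-G183S and 0.43 ± 0.10 with PAX5-WT. Hnrnpll gave 0.13 ± 0.04 with PAX5-G183S (adjusted p = 0.0624) and 0.41 ± 0.04 with PAX5-WT. Both values were positive, so its place in this pattern rests on the threshold. Gk5 and Tspan15 were on opposite sides of MIR with the 2 constructs, at -0.10 and -0.20 with PAX5-G183S and at 0.33 and 0.24 with PAX5-WT, and the values with PAX5-G183S did not pass. For both genes this differed between the isolation batches. Tspan15 gave -0.30 ± 0.09 with PAX5-G183S and 0.07 ± 0.08 with PAX5-WT in isolation batch 1, and -0.04 ± 0.09 with PAX5-G183S and 0.47 ± 0.09 with PAX5-WT in isolation batch 2. Gk5 gave -0.29 ± 0.10 with PAX5-G183S and 0.37 ± 0.09 with PAX5-WT in isolation batch 1, and in isolation batch 2 both values were positive, at 0.04 ± 0.10 with PAX5-G183S and 0.26 ± 0.11 with PAX5-WT. The gap between batches was not tested for the differences from MIR.

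In the second pattern PAX5-G183S moved the gene the same way as PAX5-WT and less far. Traf5 rose over MIR by 1.21 ± 0.07 with PAX5-G183S (limma adjusted p = 3.13e-15) and by 1.64 ± 0.07 with PAX5-WT (adjusted p = 2.54e-19). Lca5 rose by 0.25 ± 0.06 with PAX5-G183S and by 0.84 ± 0.06 with PAX5-WT, and Fam111a by 0.39 ± 0.10 with PAX5-G183S and by 0.91 ± 0.10 with PAX5-WT. Usp2 fell below MIR by 0.32 ± 0.09 with PAX5-G183S and by 0.83 ± 0.09 with PAX5-WT, which makes it higher with PAX5-G183S than with PAX5-WT.

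In the third pattern the level left that of MIR with PAX5-G183S. Themis2 fell below MIR by 0.56 ± 0.08 with PAX5-G183S (limma adjusted p = 1.85e-06), while PAX5-WT minus MIR was 0.17 ± 0.07 (adjusted p = 0.210). Zc3h12c fell by 0.50 ± 0.10 with PAX5-G183S, against a value of 0.14 ± 0.10 with PAX5-WT. Rbms1 fell by 1.09 ± 0.15 with PAX5-G183S, and PAX5-WT minus MIR, at -0.37 ± 0.15, lay on the same side without passing. 4833439L19Rik fell by 0.21 ± 0.04 with PAX5-G183S, and its difference with PAX5-WT was 0.00.

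**Figure D3:**
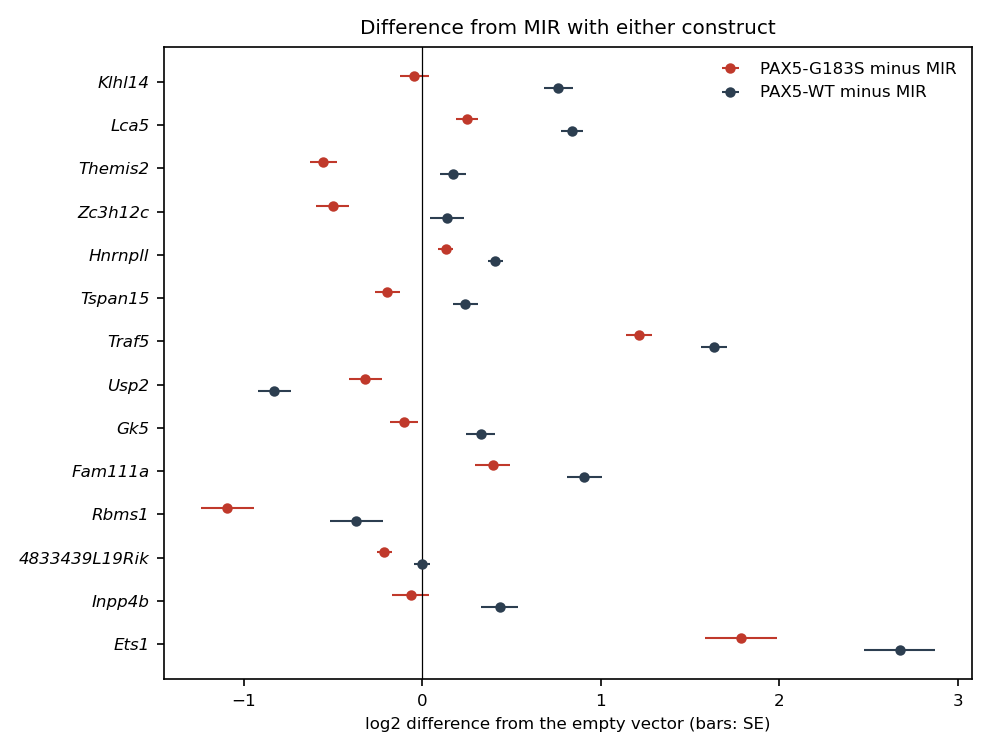
The horizontal axis is the log2 difference from MIR, with PAX5-G183S minus MIR in red above PAX5-WT minus MIR in dark blue for each gene, and the bars are SE. Klhl14 and Inpp4b lie near 0 with PAX5-G183S, Traf5 and Lca5 lie right of 0 with both constructs, and Themis2, Zc3h12c and Rbms1 lie left of 0 with PAX5-G183S.

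PAX5-G183V, changed at the same glycine, was measured in another set of transductions, so its values stand across transduction series. It lay on the same side of PAX5-WT as PAX5-G183S at all 13 genes, which were picked with the same PAX5-WT arrays. Its medians were 3.69 for Klhl14, 7.48 for Lca5, 7.10 for Themis2 and 6.68 for Rbms1. PAX5-G183S minus PAX5-G183V gave 0 called genes by limma, with 1526 at an unadjusted p under 0.05 (8.93%). Of the 13 genes, 8 had an unadjusted p under 0.05 there, and the 13 were picked with the same PAX5-G183S arrays. In PAX5-G183S minus PAX5-G183V, Klhl14 differed by -0.34 ± 0.08 (adjusted p = 0.195), Zc3h12c by -0.39 ± 0.09 (adjusted p = 0.265) and Fam111a by 0.02 ± 0.10 (adjusted p = 0.966). PAX5-G183V minus PAX5-WT called 25 genes (0.146%), among them 5 of the 13, which were Klhl14, Lca5, Themis2, Fam111a and 4833439L19Rik. Both comparisons with PAX5-WT share its 7 arrays.

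The isolation batches and plates each hold both constructs, so the comparison could be repeated within them. The 13 genes kept their direction in both isolation batches and on both plates. The arrays of these subsets also made the calls, so a kept direction is no independent test. Klhl14 had differences of -0.78 ± 0.09 and -0.80 ± 0.11 in isolation batches 1 and 2, and Themis2 had -0.74 in each. Isolation batch 1 alone called 9 genes (0.0526%) and isolation batch 2 alone 7 (0.0409%), and 6 of the 13 were among each. Plate 1 alone called 2 genes (0.0117%) and plate 2 alone 5 (0.0292%). A term for a different effect in the 2 isolation batches called 0 genes by limma, with 660 at an unadjusted p under 0.05 (3.86%). Within the 13 genes, Gk5 had the smallest unadjusted p for that term, 0.0019 (adjusted p = 1.00).

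**Figure D4:**
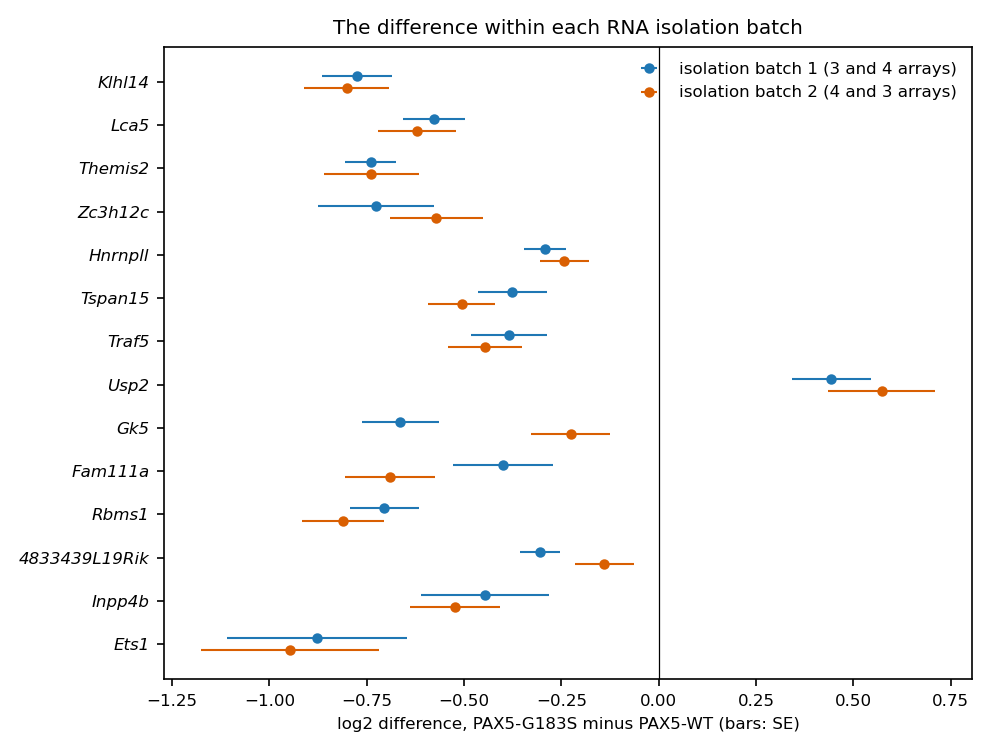
The horizontal axis is the log2 difference, PAX5-G183S minus PAX5-WT, within isolation batch 1 (blue) and isolation batch 2 (orange), and the bars are SE. The values for Usp2 lie right of 0 and all others left of it in both batches, and Gk5 shows the widest gap, at -0.66 and -0.23.

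RefSeq promoter windows of 250 bases before an annotated start (GRCm38.p6) were looked up for 14 genes, the called ones and Ets1, and found for 10. Klhl14, Hnrnpll, 4833439L19Rik and Ets1 had no window and were not searched. The windows found were searched on both strands for GCNTGAC, a core of the PAX5 site, and for CCGGAAG, a core of ETS family sites. Each was found in 1 of the 14 member windows, and in 8.79% and 6.91% of 32851 windows of the same length. The 2 windows that hold a match are printed because they belong to Themis2 and Zc3h12c, which both fell below MIR with PAX5-G183S, with the match in capitals (for Themis2, CCGGAAG read on the opposite strand). Themis2 is at chr4:132796365-132796614 and the Zc3h12c window at chr9:52149364-52149613, both on the minus strand. The Zc3h12c window is 1 of its 2 and lies inside the gene, before an internal start, while the other, at chr9:52168407-52168656, holds neither core.
Themis2: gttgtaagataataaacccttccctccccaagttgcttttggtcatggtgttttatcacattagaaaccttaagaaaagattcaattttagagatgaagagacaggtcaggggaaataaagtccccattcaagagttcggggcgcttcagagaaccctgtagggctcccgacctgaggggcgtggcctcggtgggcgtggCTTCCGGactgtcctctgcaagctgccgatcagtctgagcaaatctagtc
Zc3h12c: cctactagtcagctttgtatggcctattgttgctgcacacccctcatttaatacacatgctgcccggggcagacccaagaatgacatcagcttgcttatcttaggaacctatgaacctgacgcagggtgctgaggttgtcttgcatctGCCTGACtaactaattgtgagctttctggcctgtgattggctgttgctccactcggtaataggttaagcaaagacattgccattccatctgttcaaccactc
Counted from the start that each window precedes, the match begins at position -50 in the Themis2 window and at -102 in the Zc3h12c window. A match is a description of the letters and no evidence of binding, and the other windows lack these letters in the stretch searched.

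The genes that wild-type PAX5 moved furthest from MIR were also read between the constructs. Of the 10 largest rises and 10 largest falls in PAX5-WT minus MIR, 0 of 20 were called in PAX5-G183S minus PAX5-WT (background 0.076%). At that share, 0 of 20 does not stand out from all genes. Each of the 10 rises had a lower value with PAX5-G183S than with PAX5-WT, and these genes were picked by the same PAX5-WT arrays. Cd36, a scavenger receptor that takes up fatty acids, averaged 10.1 in PAX5-G183S arrays, 10.3 in PAX5-WT arrays and 4.03 in MIR arrays. Ms4a1, the gene for CD20, differed by -0.30 ± 0.28 and Asb9 by 0.11 ± 0.15. These SE are wider than the median of 0.08 over all genes, so a missed call does not show equal levels. Mycn, a MYC family gene lower with PAX5-WT than with MIR, differed by -0.21 ± 0.14.

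Fcgr2b and Slamf6 had wide differences that missed the threshold. Fcgr2b, an Fc receptor that restrains B cell activation, had levels of 7.58, 8.75 and 9.35 in PAX5-G183S arrays, against 8.75, 9.60 and 10.13 in PAX5-WT arrays. It differed by -0.94 ± 0.27 (SE; limma adjusted p = 0.377). Slamf6, a receptor of the SLAM family on lymphocytes, had levels of 5.95, 6.57 and 7.73 in PAX5-G183S arrays, against 6.25, 6.96 and 9.65 in PAX5-WT arrays. The Slamf6 ranges overlapped widely and the PAX5-WT arrays spread far. Slamf6 had the largest negative difference of all genes, -1.09 ± 0.36 (limma adjusted p = 0.560). The difference was -0.37 ± 0.14 in isolation batch 1 and -2.27 ± 0.27 in isolation batch 2, which called it when fitted alone (adjusted p = 0.00286). The term for that gap between batches had an unadjusted p of 0.000638 and an adjusted p of 1.00. Nav3, a microtubule-binding protein, differed by -0.72 ± 0.37 (adjusted p = 0.913), and isolation batch 1 alone called it.

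To read wild-type responses in arrays that did not choose them, genes were picked in PAX5-WT minus MIR within one isolation batch and their PAX5-G183S minus PAX5-WT values were taken from the other. Of 253 genes raised in isolation batch 1, 139 (54.9%) were lower with PAX5-G183S in isolation batch 2, with a median of -0.01. Of 111 raised in isolation batch 2, 74 (66.7%) were lower in isolation batch 1, with a median of -0.06. Over all genes those shares were 50.6% and 49.4%. Of 190 genes lowered in isolation batch 1, 64 (33.7%) were lower with PAX5-G183S in isolation batch 2, and of 46 lowered in isolation batch 2, 21 (45.7%) were lower in isolation batch 1, with medians of 0.05 and 0.01.

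Genes just short of the threshold included Atp8a1, a phospholipid flippase, at -0.33 ± 0.08 (limma adjusted p = 0.122), and Dusp3, a dual-specificity phosphatase, at -0.27 ± 0.06 (adjusted p = 0.124). Elovl6, which elongates fatty acids, was at -0.38 ± 0.09 and did not overlap between the groups, with levels of 7.81, 8.47 and 8.63 in PAX5-G183S arrays and of 8.65, 8.68 and 8.92 in PAX5-WT arrays. Itgb1, an integrin subunit, was at -0.33 ± 0.08, Insl6 at -0.40 ± 0.10, Eef1akmt1 at -0.23 ± 0.06 and Coq7 at -0.19 ± 0.05. Smad7, an inhibitor of TGF-beta signalling, was on the other side at 0.36 ± 0.09, and so was Sec1 at 0.31 ± 0.07. The largest rises that were not called were Nupr1, a stress-induced nuclear protein, at 0.55 ± 0.16 and Ppp1r14a at 0.49 ± 0.13. Without PAX5-G183S replicate 7 the value for Nupr1 was 0.32 ± 0.08.

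Lists of genes by function were read beside the shares over all genes, 0.076% called and 5.51% at an unadjusted p under 0.05. At a share that low, a list of this size with 0 called genes does not stand out from all genes. Of the 21 lists, only that of TRAF adaptors and NF-kB held a called member, Traf5, 1 of 22 measured (background 0.076%), with a list median of 0.03 beside 0.00 over all genes. The lists were chosen with earlier results of these data known, so that share is no test of the list. Of 22 genes that PAX5 is known to activate, 0 were called, 2 had an unadjusted p under 0.05, and 15 were lower with PAX5-G183S, with a median of -0.05. Over all genes, 8497 of 17097 were lower. PAX5-WT minus MIR called 5 of the 22, and 1 of these, Mycn, fell, at -2.01 ± 0.14. The count of lower genes is thus no measure of weaker activation. Slamf6 and Siglecg led that list, the second at -0.45 ± 0.19. Of 22 genes that PAX5 is known to repress, 0 were called, 2 had an unadjusted p under 0.05, and the median was -0.01. Csf1r, the receptor of a myeloid growth factor, was at -0.24 ± 0.08 and Itga4, an integrin subunit, at -0.27 ± 0.12. Of the 22, 10 were higher with PAX5-G183S and 12 lower, the highest being Grap2 at 0.14 ± 0.09. PAX5-WT minus MIR called 4 of the 22. Of these, Grap2 was at -0.53 ± 0.09, Itga4 at -1.02 ± 0.12 and Xbp1 at -0.14 ± 0.04. Flt3 went the other way and had the largest of these changes, a rise of 1.33 ± 0.13. For Csf1r PAX5-WT minus MIR was 0.22 ± 0.08 and did not pass.

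Of 20 measured Groucho co-repressors and PAX5 partners, 0 were called, 2 had an unadjusted p under 0.05, and the median was 0.03. Tle6, a Groucho relative, was at 0.23 ± 0.07 and Tle2 at 0.14 ± 0.08, and the list also holds Ets1. Of 26 transcription factors of the B lineage 0 were called, with a median of 0.01, Id3, an inhibitor of E proteins, at 0.17 ± 0.18 and Irf8 at 0.17 ± 0.17. B cell receptor signalling had 0 of 23 called and a median of -0.02, with Syk, the proximal kinase, at -0.20 ± 0.08. B cell surface antigens had 0 of 15 called and a median of -0.01, with Cd40 at 0.24 ± 0.12 and Cd69 at 0.27 ± 0.15. The last 3 lists had 2 members each at an unadjusted p under 0.05.

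MHC class II presentation had 0 of 16 called, 2 at an unadjusted p under 0.05 and a median of -0.04. Its chaperone genes H2-DMa and H2-DMb2 were at -0.49 ± 0.16 and -0.30 ± 0.13, and the chain gene H2-Aa was at -0.43 ± 0.30. The interferon response had 0 of 21 called, 5 at an unadjusted p under 0.05 and a median of -0.05. Epsti1 was at -0.41 ± 0.14, Irgm1, an immunity-related GTPase, at -0.23 ± 0.07 and Irf7, a regulator of interferon genes, at -0.21 ± 0.09.

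Lists for the plasma cell state and the cell cycle stand beside the same shares of all genes, 0.076% called and 5.51% at an unadjusted p under 0.05. Plasma cell identity had 0 of 16 called, 0 at an unadjusted p under 0.05 and a median of 0.01, with Prdm1, which encodes the repressor Blimp-1, at 0.10 ± 0.05. The unfolded protein response had 0 of 21 called, 1 at an unadjusted p under 0.05 and a median of 0.03, and its mean level was 10.31 in PAX5-G183S replicate 7, against 9.94 to 10.11 in the other PAX5-G183S arrays and 9.91 to 10.08 in PAX5-WT arrays. The cell cycle list had 0 of 27 called and 0 at an unadjusted p under 0.05, with a median of 0.02.

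In the metabolic and survival lists, cholesterol synthesis had 0 of 14 called and a median of 0.05, MYC and ribosome biogenesis 0 of 16 and -0.03, and glycolysis and hypoxia 0 of 16 and 0.01. Those lists had 0, 1 and 3 members at an unadjusted p under 0.05, and Hif1a, the oxygen-sensitive transcription factor, was at 0.14 ± 0.04. Apoptosis had 0 of 16 called, 2 at an unadjusted p under 0.05 and a median of 0.03, with Casp9, the initiator caspase, at -0.25 ± 0.07 and Bcl2, which blocks cell death, at 0.22 ± 0.08. Adhesion and migration had 0 of 14 called, 2 at an unadjusted p under 0.05 and a median of 0.00. Longer lists of T cell, myeloid, erythroid and fibroblast markers had 0 called of 12, 13, 8 and 14, with 1, 2, 0 and 2 at an unadjusted p under 0.05 and medians of 0.01, -0.04, -0.01 and -0.02.

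**Figure D5:**
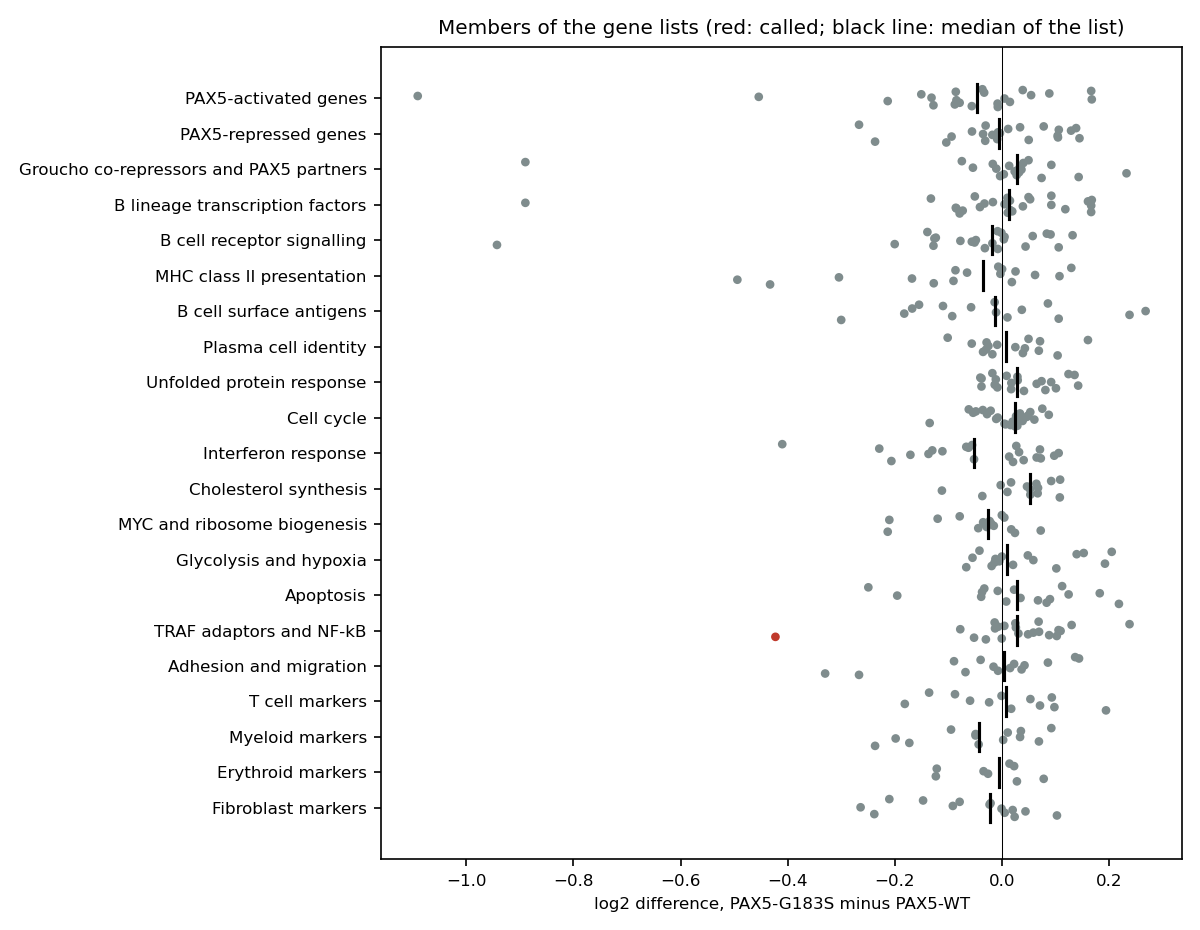
The horizontal axis is the log2 difference, PAX5-G183S minus PAX5-WT, with 1 point a measured gene, 1 line a list and the black bar the list's median. Traf5 is the called member, in red, and the medians of the 21 lists lie between -0.05 and 0.05.

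Probe sets that name no gene or several were tested apart, and 1 of 16139 was called (0.0062%). That probe set names both Tmem243 and Gm17739 and so belongs to no single gene. It ranged from 8.60 to 9.38 in PAX5-G183S arrays, against 9.06 to 9.99 in PAX5-WT arrays, and it averaged 8.91 in MIR arrays. The ranges overlapped, and the difference was -0.52 ± 0.09 (SE; limma adjusted p = 0.0266).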

How the data were processed

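Total RNA of transduced J558LuM cells was labelled and hybridised to 3' expression arrays, 40 in all. Per the submitters' processing notes, RMA gave the log2 values per probe set that the authors deposited, and they were used unchanged. The software that ran it was not named there. Single genes were named by 28898 of 45141 probe sets, several by 551 and no gene by 15692. The brightest probe set stood for each of 17097 genes. With 0 identical columns, correlations between the 14 arrays compared ran from 0.992 to 0.998.

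limma 3.58.1, run in R 4.3.3 beside statmod 1.5.0, estimated a term for each of 6 groups, for the plate (2) and for the RNA isolation batch (2) from all 40 arrays. The Benjamini-Hochberg adjustment ran over all genes, and an adjusted p under 0.05 made a call. Errors are moderated SE. Procedures were tested on simulated data.

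Named were all called genes, the next 10 by p, the 10 largest uncalled differences each way, up to 4 genes a list, the 20 largest PAX5-WT changes against MIR, Pax5 and Cd79a, and family members by range. Non-overlapping genes outside that rule were named after their values were seen. The members and lists were chosen with earlier results of these data known. Alternatives were other batch terms, single batches and plates, a replicate block, the 2 groups alone, other probe set and signal handling, a minimum fold and leaving out single arrays in turn. The 3 chosen after seeing the data were 3 groups only, and the 2 groups without PAX5-G183S replicate 7 or 4.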

Additional observations from a re-analysis of the deposited data

Results flagged for a closer look

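Over 254 groups of 7 values, 15 values lay far from the other 6 of their group, by Dixon's ratio. Chance gives such a value in about 1 group in 20. PAX5-G183S replicate 7 held 8 of the 15. It was the highest PAX5-G183S array in Nupr1 (6.407), Tle6 (9.243), Ddit3 (6.907), Herpud1 (12.1), Trib3 (7.271), Alas2 (3.898) and Cd79a (4.603), and the lowest in Nolc1 (10.63). Nupr1, Ddit3, Herpud1 and Trib3 are known as stress-response genes, and how these cells differed was not tested.

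Among the other PAX5-G183S arrays, Siglecg was high in replicate 2 (7.533) and Insig1 low in replicate 4 (8.39). In PAX5-WT arrays, Tspan15 (7.487) and Nfkbib (7.097) were low in replicate 4, Slc25a34 (6.119) and H2-DMb1 (4.604) high in replicate 1, and Elovl6 (8.918) high in replicate 6.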

How the results depend on the processing

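The 13 genes called set the scale for these totals, which can include other genes: 11 were called with no batch terms, 12 with batch as a random block, 17 with 3 transduction series (13 of them shared with the 13), 14 with a gene's probe sets averaged (11 shared), 15 with quantile normalization applied again, 13 with arrays centred on their medians, 10 with dim genes left out, 15 with trend and robust settings and 12 with array weights. Fewer arrays or a size limit lowered the count to 2 on plate 1, 5 on plate 2, 9 in isolation batch 1, 7 in isolation batch 2 and 7 in the 2 groups alone (6 shared in each of these 3) and to 5 at a minimum of 1.5-fold. Leaving out 1 array gave 9 to 16. Chosen after seeing the data, 3 groups gave 13, and the 2 groups gave 7 without PAX5-G183S replicate 7 and 11 without replicate 4. Replicate numbers did not pair the arrays: residuals of same-numbered arrays correlated at -0.03 to 0.17, and numbers 1 and 3 alone matched best with themselves. The replicate block called 10 genes, without Rbms1, Inpp4b and 4833439L19Rik.

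Themis2 was called in all 29 alternatives, Lca5 in 28, Klhl14 in 27 of 28, Rbms1 in 16, 4833439L19Rik in 11 and Inpp4b in 10 of 28. All 13 kept their direction in each, in fits that reuse the arrays that made the calls. Over all named genes and comparisons, 137 values lost a call, and 0 values called under either setting changed sign. Uncalled differences from MIR did change sign, with PAX5-G183S for Klhl14 (-0.17 to 0.09), Inpp4b (-0.24 to 0.06) and Gk5 (-0.29 to 0.04), and with PAX5-WT for 4833439L19Rik (-0.06 to 0.04). The cause was not tested.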

Other observations

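Chromosome 9 held 4 of the 13 called genes, Lca5, Zc3h12c, Usp2 and Gk5, and 5.61% of the 16934 genes with a chromosome in RefSeq. Ets1 lies there too. No test was made of this count, which was noticed after the genes were called.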
